A study of Mus musculus with 24 samples.

Results

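The effect of interferon gamma (IFNg) added to bacterial lipopolysaccharide (LPS) was compared between 1 h and 18 h of stimulation in mouse bone marrow-derived macrophages. The 12 libraries of the series' 24 whose titles name these stimuli were used, 3 for each of LPS with IFNg at 1 h, LPS alone at 1 h, LPS with IFNg at 18 h and LPS alone at 18 h. All cells were wild type on a C57BL/6 background and were differentiated from marrow for 7 days with 20 ng/mL of the macrophage growth factor CSF-1, which stayed in the medium during stimulation. IFNg was given at 50 ng/mL. LPS was given at 20 or 100 ng/mL, and the labels do not say which dose went with which group, so a difference of LPS dose and the addition of IFNg cannot be told apart from the labels. No group received IFNg alone, and the effect described is that of IFNg on top of LPS. A further 6 libraries of unstimulated cells, 3 at each time, served as background levels. Nothing in the labels ties the replicates to separate mice or cultures. The p-values therefore reflect the spread among libraries, and this spread may be technical.

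For each gene the effect of added IFNg is the log2 ratio of LPS with IFNg over LPS alone, and the difference between the times is the effect at 18 h minus the effect at 1 h, tested as an interaction in edgeR. A positive difference means that the effect was more positive, or less negative, at 18 h. Of 43629 gene identifiers, 12301 passed the count filter and were tested, and 4183 of these (34.0%) had a difference at a Benjamini-Hochberg adjusted p below 0.05. The difference was positive in 2015 genes (16.4%) and negative in 2168 (17.6%), and it was at least 2-fold in 750 and 876 of them. Levels are given as CPM, the usual scale of counts relative to the total of a library, with totals scaled by TMM, and values after ± are standard errors (n = 3 libraries a group) unless called SD.

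IFNg binds a receptor of the subunits IFNGR1 and IFNGR2, whose kinases JAK1 and JAK2 phosphorylate transcription factors of the STAT family. STAT dimers bind GAS elements in promoters and switch on early genes, among them Irf1, which encodes a factor that binds ISRE-type elements and drives later genes. CIITA, the master regulator of MHC class II genes, is one of the later products in macrophages. LPS acts through TLR4 on NF-kappaB and, through interferon beta made by the same cells, on many of the genes that IFNg also induces. Macrophages given both signals serve as the textbook model of classical activation, with nitric oxide, antigen presentation and a glycolytic metabolism as hallmarks.

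The 12 libraries held 4181890 to 8057789 counts each, with 15450 to 16291 genes detected. The times separated on principal component 1 (77.0% of the variance), and component 2 took 11.6%. LPS 18 h replicate 2 stood apart from its group: the chi-square per gene between its counts and those of the other replicates was 9.66 and 12.1, against 2.46 between the other pair and 1.79 to 3.65 within the other groups. In that library the MHC class II list lay 0.491 (log2, median of its genes) above the mean of the other replicates, the antioxidant list 0.338, the MHC class I list 0.283 and the glycolysis list 0.219, against 0.008 for all tested genes. The lists of dendritic cell markers (0.345), interferon-induced chemokines (0.253) and NADPH oxidase (0.228) also lay higher. Other lists lay lower, among them the kynurenine pathway (-0.494) and the Toll-like receptors (-0.26). Without it 4485 genes were called, of which 3949 were also called with it, and counts without it are given beside each list below where they differ. In these bulk samples fewer cells of a kind and less RNA per cell cannot be told apart. Libraries came from a stranded kit, and whether reads were counted by strand is not given in the sources used here, so reads of genes that overlap another gene on the opposite strand cannot be told apart. Among the genes named below, this touches Arg2, Batf2, Bnip3, Cd274, Cd38, Cdkn1a, Cebpd, Ch25h, Ciita, Cish, Cnn3, Crem, Cxcl10, Cxcl11, Cytip, Fcgr2b, Fgl2, Fh1, Fosl1, Gadd45a, Gbp2, Gpr183, H2-DMa, H2-Eb1, Il27, Il4ra, Irf1, Irf7, Jdp2, Mertk, Mki67, Ncf1, Parp4, Parp9, Pfkp, Pla2g4a, Psmb9, Pycard, Ripk1, Slc6a19, Slc7a11, Tap1, Tap2, Tapbpl, Tgtp1, Tgtp2, Timp1, Tiparp, Tyk2, Vcam1 and Wars. Tgtp1 and Tgtp2 and the MHC class I genes have close copies between which reads could be split.

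The effect of added IFNg widened with time. At 1 h it was called in 1396 genes (11.3%), 755 higher (6.14%) and 641 lower (5.21%). At 18 h it was called in 5789 genes (47.1%), 2944 higher (23.9%) and 2845 lower (23.1%). The median over all tested genes was -0.0097 at 1 h, -0.0026 at 18 h and -0.0074 for the difference (log2). Scaling by library size alone moved these medians to -0.072, -0.119 and -0.062, so all changes are relative to the TMM scaling, which centres the bulk of genes near 0.

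Genes were sorted by which effects were called. The effect appeared at 18 h, with a called difference, in 1431 genes higher with IFNg and 1674 lower. It was called at 1 h and not at 18 h, with a called difference, in 143 genes higher with IFNg and 184 lower. In 284 genes it had the same direction at both times with a called difference in size: it was smaller at 18 h in 127 genes raised by IFNg and in 26 lowered by it, and larger at 18 h in 86 raised and 45 lowered. It turned round in 309 genes, of which 118 were higher with IFNg at 1 h and lower at 18 h, and 191 were the other way round. In 257 genes it persisted, with the same direction called at both times and a 95% interval of the difference within 1 log2 unit either side of 0; 168 of these were higher with IFNg and 89 lower. A called difference without a called effect at either time was left in 158 genes. An effect called at 18 h alone without a called difference was found in 1773 genes (14.4%), and one called at 1 h alone without a called difference in 158. These genes cannot be said to differ between the times. A further 61 genes had the same direction called at both times, no called difference and an interval too wide for the persistent class. Neither an effect nor a difference was called in 5869 genes.

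**Figure D1:**
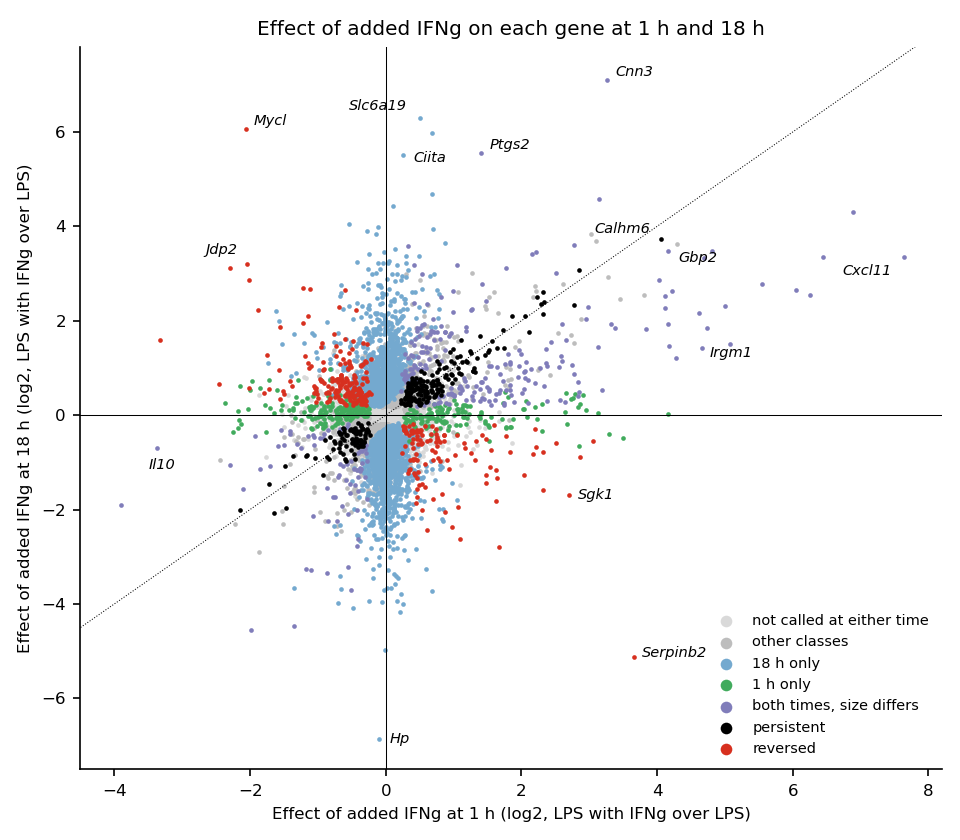
Effect of added IFNg at 18 h (vertical axis, log2 of LPS with IFNg over LPS alone) against the effect at 1 h (horizontal axis, same unit), 1 point per tested gene, with colours for the classes and a dotted line where both effects are equal. The 303 genes with 3 or fewer counts in a group are left out, which leaves 11998. Genes of the 18 h class lie along the vertical axis, the reversed genes lie at the upper left and lower right, and the genes with the largest effects at 1 h lie below the dotted line.

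The same differences can be read as the change over time within each stimulus. With LPS and IFNg 8975 genes (73.0%) changed between 1 h and 18 h, 4433 higher (36.0%) and 4542 lower (36.9%). With LPS alone 7953 genes (64.7%) changed, 3911 higher (31.8%) and 4042 lower (32.9%). Of the 2015 genes with a positive difference, 710 rose with time under both stimuli, 548 rose with IFNg and were not called with LPS alone, 295 fell under both, 248 were not called with IFNg and fell with LPS alone, and 207 rose with IFNg and fell with LPS alone. Of the 2168 with a negative difference, 869 fell under both, 505 fell with IFNg and were not called with LPS alone, 301 were not called with IFNg and rose with LPS alone, 284 rose under both, and 198 fell with IFNg and rose with LPS alone.

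Promoter sequence was set beside these classes. Windows of 250 bases before to 50 after the RefSeq starts (GRCm38.p6) were found for 9097 tested genes and searched on both strands for TTCNNNGAA, the GAS motif, and for GAAANNGAA, the core of the ISRE; the motifs can overlap. A gene was counted if any of its windows held the motif, so genes with more starts had more chances to be counted. The number of windows per gene was not compared between the classes. Of all these genes 8.21% had a GAS motif and 8.95% the ISRE core. Among genes raised at both times and less at 18 h the shares were 21.2% and 33.3% (99 genes), among those raised at 1 h alone 16.2% and 17.1% (111), and among those raised at 1 h and lowered at 18 h 14.4% and 15.5% (97). Genes raised at both times and more at 18 h, Irf1 among them, had 15.2% and 10.6% (66). Persistently raised genes had 9.84% and 18.9% (122). Genes raised at 18 h alone had 7.35% and 8.82% (1089), and genes lowered at 1 h and raised at 18 h 5.52% and 4.83% (145). These shares are a description of the windows and not of binding, and no test was made of them.

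The windows of 4 named genes were chosen because they hold a motif, and they do not stand for their classes. The motifs are in capitals and the other bases in lower case, 5′ to 3′ on the strand of the gene. Irf1 (chr11:53769764-53770063, + strand), raised more at 18 h, has a GAS motif that begins 90 bases before the start. Igtp (chr11:58199306-58199605, + strand), with a persistent effect, has a GAS motif at -45 and an ISRE core at -34 close to it. Sgk1 (chr10:21881934-21882233, + strand) and Serpinb2 (chr1:107511260-107511559, + strand) are reversed genes; this start of Sgk1 has a GAS motif at -223 and an ISRE core at -110, and this start of Serpinb2 has a GAS motif at -77. The other window of Irf1 and the other 5 of Sgk1 hold neither motif, and the other window of Serpinb2 overlaps the one shown and holds the same GAS motif. The windows of the reversed genes Gja1, Osgin1, Ccl12, Mycl, Jdp2 and Otud1 hold neither motif.
Irf1: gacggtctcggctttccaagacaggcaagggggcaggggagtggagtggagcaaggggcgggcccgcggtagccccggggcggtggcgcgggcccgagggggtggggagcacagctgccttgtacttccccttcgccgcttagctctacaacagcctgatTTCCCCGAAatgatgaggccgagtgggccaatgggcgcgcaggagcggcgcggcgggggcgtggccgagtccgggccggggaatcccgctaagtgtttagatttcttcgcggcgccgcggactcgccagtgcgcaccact
Igtp: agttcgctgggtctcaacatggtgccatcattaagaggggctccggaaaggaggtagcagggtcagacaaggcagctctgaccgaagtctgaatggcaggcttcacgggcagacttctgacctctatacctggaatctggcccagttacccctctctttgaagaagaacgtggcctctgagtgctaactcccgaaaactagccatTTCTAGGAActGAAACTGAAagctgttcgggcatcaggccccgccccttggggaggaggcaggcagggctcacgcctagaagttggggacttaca
Sgk1: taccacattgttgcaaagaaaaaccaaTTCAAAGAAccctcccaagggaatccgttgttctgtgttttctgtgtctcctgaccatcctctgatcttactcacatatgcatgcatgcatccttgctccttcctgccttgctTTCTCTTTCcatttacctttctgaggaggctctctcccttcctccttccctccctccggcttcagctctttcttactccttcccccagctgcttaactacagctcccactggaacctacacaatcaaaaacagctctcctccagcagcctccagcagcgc
Serpinb2: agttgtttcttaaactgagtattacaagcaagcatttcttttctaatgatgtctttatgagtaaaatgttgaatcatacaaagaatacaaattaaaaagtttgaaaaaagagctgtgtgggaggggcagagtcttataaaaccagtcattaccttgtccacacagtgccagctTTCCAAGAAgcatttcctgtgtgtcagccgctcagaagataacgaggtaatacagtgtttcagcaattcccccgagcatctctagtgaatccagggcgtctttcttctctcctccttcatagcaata

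Gene lists showed how these classes fell across pathways. Lists are described by counts beside the shares of all tested genes above, 16.4% with a positive and 17.6% with a negative difference. Counts of members higher or lower with IFNg have their own shares over all tested genes. These were 6.14% higher and 5.21% lower at 1 h, and 23.9% higher and 23.1% lower at 18 h.

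**Figure D2:**
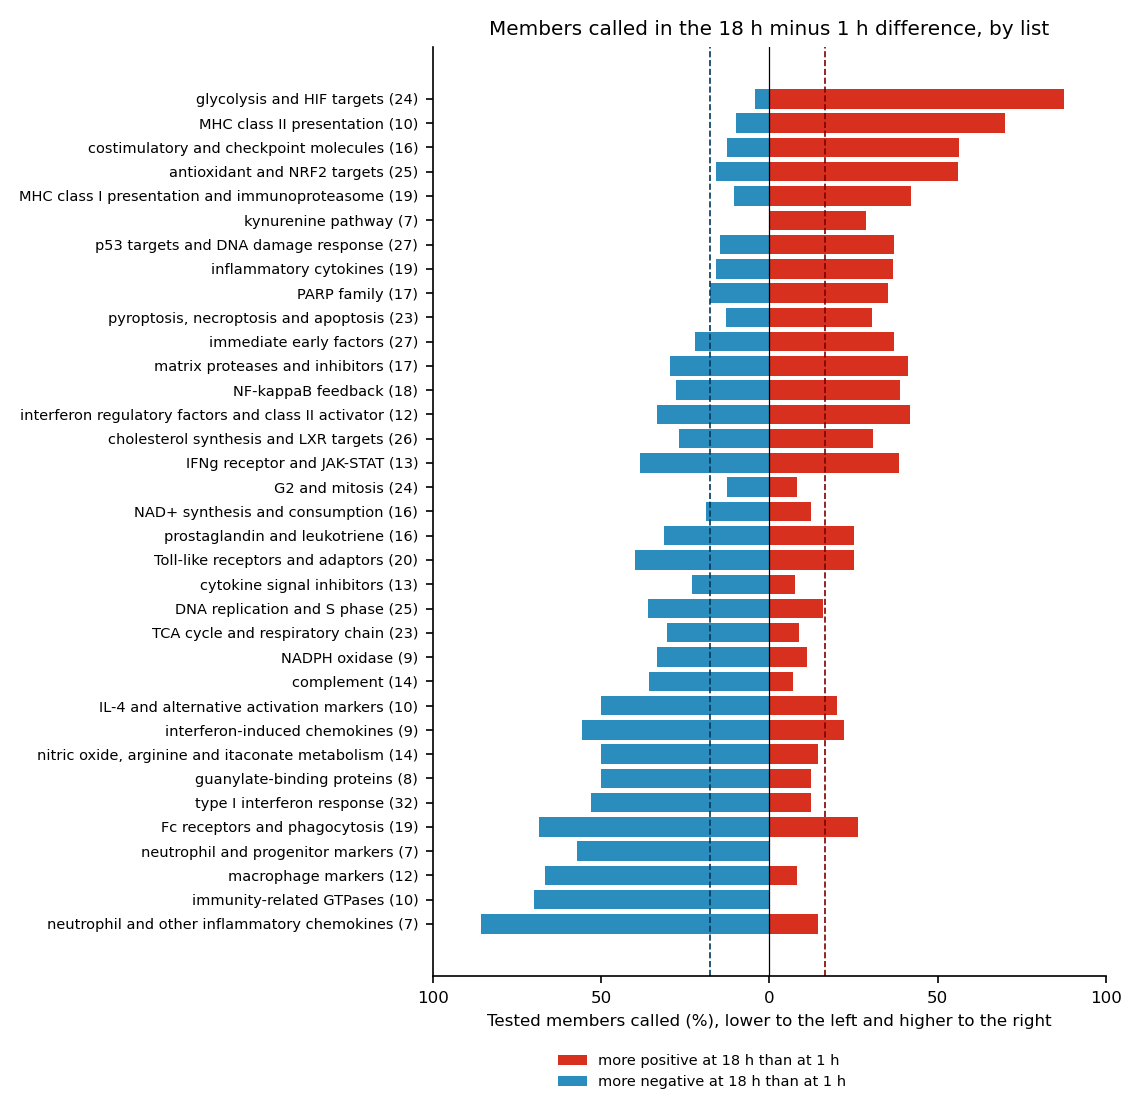
Share of the tested members of each list (number in brackets, lists with at least 7) with a called difference, positive to the right in red and negative to the left in blue, in percent. Dashed lines mark the shares over all tested genes, 16.4% and 17.6%. Glycolysis and MHC class II lie at the top, with 21 of 24 and 7 of 10 members positive, and the immunity-related GTPases near the bottom, with 7 of 10 negative.

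Genes of IFNg signalling and related receptors and kinases shifted in both directions. The list also holds genes beyond the IFNg receptor and its kinases, such as Tyk2 and Ifnar2. Of 13 tested genes of the receptor and JAK-STAT list, 5 had a positive and 5 a negative difference. Their median was -0.055, and it ran from -0.177 without LPS 1 h replicate 1 to 0.037 without LPS 1 h replicate 2 and 0.093 without LPS 18 h replicate 2. Both receptor subunits were lower with IFNg at 1 h. Ifngr1 stood at 163, 159 and 154 CPM with LPS and IFNg at 1 h, against 252, 234 and 247 CPM with LPS alone. At 18 h Ifngr1 stood at 38.4, 33.4 and 41.1 CPM with LPS and IFNg, against 79.4, 80.7 and 80.1 CPM with LPS alone. The groups did not overlap at either time, and the effect was larger at 18 h (-0.62 ± 0.07 at 1 h and -1.09 ± 0.09 at 18 h, difference -0.46 ± 0.11, edgeR adjusted p = 0.00299). Ifngr2, the signalling subunit, was lower at 1 h (-0.73 ± 0.08) and was -0.05 ± 0.07 at 18 h, with an edgeR adjusted p of 0.575 there. The kinase genes Jak2 (0.97 ± 0.19) and Tyk2 (1.08 ± 0.13) had positive differences, and Ifnar2, a subunit of the type I interferon receptor, a negative one (-0.67 ± 0.12).

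Of the 12 interferon regulatory factors and class II activators, 8 were higher with IFNg at 1 h and 8 at 18 h, and the difference was positive in 5 and negative in 4 (median 0.26). Irf1 stood at 2668, 2512 and 2724 CPM with LPS and IFNg at 1 h, against 591, 598 and 592 CPM with LPS alone. At 18 h Irf1 stood at 1633, 1612 and 1627 CPM with LPS and IFNg, against 152, 158 and 149 CPM with LPS alone. Unstimulated cells held 38.0, 35.4 and 37.0 CPM at 1 h and 30.9, 29.1 and 33.1 CPM at 18 h. The level fell with time under both stimuli but further with LPS alone, so the effect of IFNg was 2.15 ± 0.06 at 1 h and 3.41 ± 0.07 at 18 h, a difference of 1.26 ± 0.09 (edgeR adjusted p = 9.18e-10). Irf8, a factor of macrophage identity and IFNg responses, went the other way (4.11 ± 0.08 at 1 h and 2.26 ± 0.07 at 18 h, difference -1.85 ± 0.10), as did Batf2 (5.54 ± 0.21 at 1 h and 2.78 ± 0.12 at 18 h, difference -2.77 ± 0.24). Irf7, the amplifier of the type I interferon response, was 1.04 ± 0.15 at 1 h and 0.14 ± 0.11 at 18 h, where LPS alone had brought it to 2730.3, 3279 and 2748 CPM beside 3292, 3261 and 3072 CPM with LPS and IFNg. Among 13 inhibitors of cytokine signals, 1 difference was positive (2 without LPS 1 h replicate 2) and 3 were negative. Socs1, which blocks JAK kinases, was 4.69 ± 0.14 at 1 h and 3.34 ± 0.09 at 18 h, and Socs3 was raised at 1 h alone (1.13 ± 0.07 at 1 h and 0.09 ± 0.07 at 18 h).

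Of the genes that IFNg raised at both times with a called difference, 127 were raised less at 18 h and 86 more. Most immunity-related GTPases were among those raised less. The 10 tested immunity-related GTPases, which attack the vacuoles of intracellular pathogens, were all higher with IFNg at both times. Their median effect was 4.47 at 1 h and 2.21 at 18 h, and 7 of 10 had a negative difference and none a positive one (median -2.83). Without LPS 18 h replicate 2 the counts were 8 negative and 1 positive. Irgm1, which regulates the other members, stood at 1105, 1034 and 1157 CPM with LPS and IFNg at 1 h, against 49.2, 34.9 and 46.5 CPM with LPS alone. At 18 h Irgm1 stood at 1208, 1176 and 1203 CPM with LPS and IFNg, against 449, 460.1 and 439 CPM with LPS alone. Unstimulated cells held 47.6, 42.7 and 47.5 CPM at 18 h. The groups did not overlap at either time: the level with IFNg was similar at 1 h and 18 h, while the level with LPS alone was higher at 18 h. The difference for Irgm1 was -3.24 ± 0.13 (edgeR adjusted p = 1.08e-13). Gm12250 (-3.56 ± 0.20), Tgtp2 (-3.40 ± 0.42) and Tgtp1 (-3.09 ± 0.48) behaved likewise, but their levels with IFNg also rose with time. Tgtp1 stood at 53.7, 49.7 and 58.9 CPM with LPS and IFNg at 1 h, against 0.365, 0.399 and 1.12 CPM with LPS alone. At 18 h Tgtp1 stood at 2185, 2213 and 2330.4 CPM with LPS and IFNg, against 211, 254 and 195 CPM with LPS alone. Igtp kept its effect and stood at 80.8, 66.7 and 74.9 CPM with LPS and IFNg at 1 h, against 15.1, 13.6 and 16.0 CPM with LPS alone. At 18 h Igtp stood at 1393, 1451 and 1415 CPM with LPS and IFNg, against 219, 251 and 231 CPM with LPS alone. Its effect was 2.32 ± 0.11 at 1 h and 2.60 ± 0.08 at 18 h, and its difference of 0.29 ± 0.14 had an edgeR adjusted p of 0.118, which became 0.34 with an adjusted p of 0.043 without LPS 18 h replicate 2.

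The guanylate-binding proteins, a related GTPase family, were higher with IFNg in 6 of 8 tested genes at 1 h and in all 8 at 18 h, with medians of 3.77 and 3.48. Their differences were negative in 4 and positive in 1 (median -0.14). The median ran from -0.912 without LPS 1 h replicate 2 to 0.032 without LPS 1 h replicate 1, and it was 0.037, with 3 positive calls, with limma-voom. Gbp2 stood at 502, 469 and 518 CPM with LPS and IFNg at 1 h, against 28.3, 25.1 and 30.3 CPM with LPS alone. At 18 h Gbp2 stood at 9293, 9324 and 9601 CPM with LPS and IFNg, against 849, 963 and 729.9 CPM with LPS alone. The effect was 4.15 ± 0.11 at 1 h and 3.47 ± 0.08 at 18 h, and the level rose with time under both stimuli (difference -0.68 ± 0.14, edgeR adjusted p = 0.000463). Gbp7 (-2.89 ± 0.24), Gbp3 (-1.53 ± 0.17) and Gbp2b (-1.33 ± 0.13) had negative differences. Gbp9 had a positive one of 0.77 ± 0.22 (edgeR adjusted p = 0.00871), which was 0.57 with an adjusted p of 0.0658 without LPS 1 h replicate 3. Without LPS 1 h replicate 2 or LPS with IFNg 1 h replicate 1 the positive count of the list was 2.

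**Figure D3:**
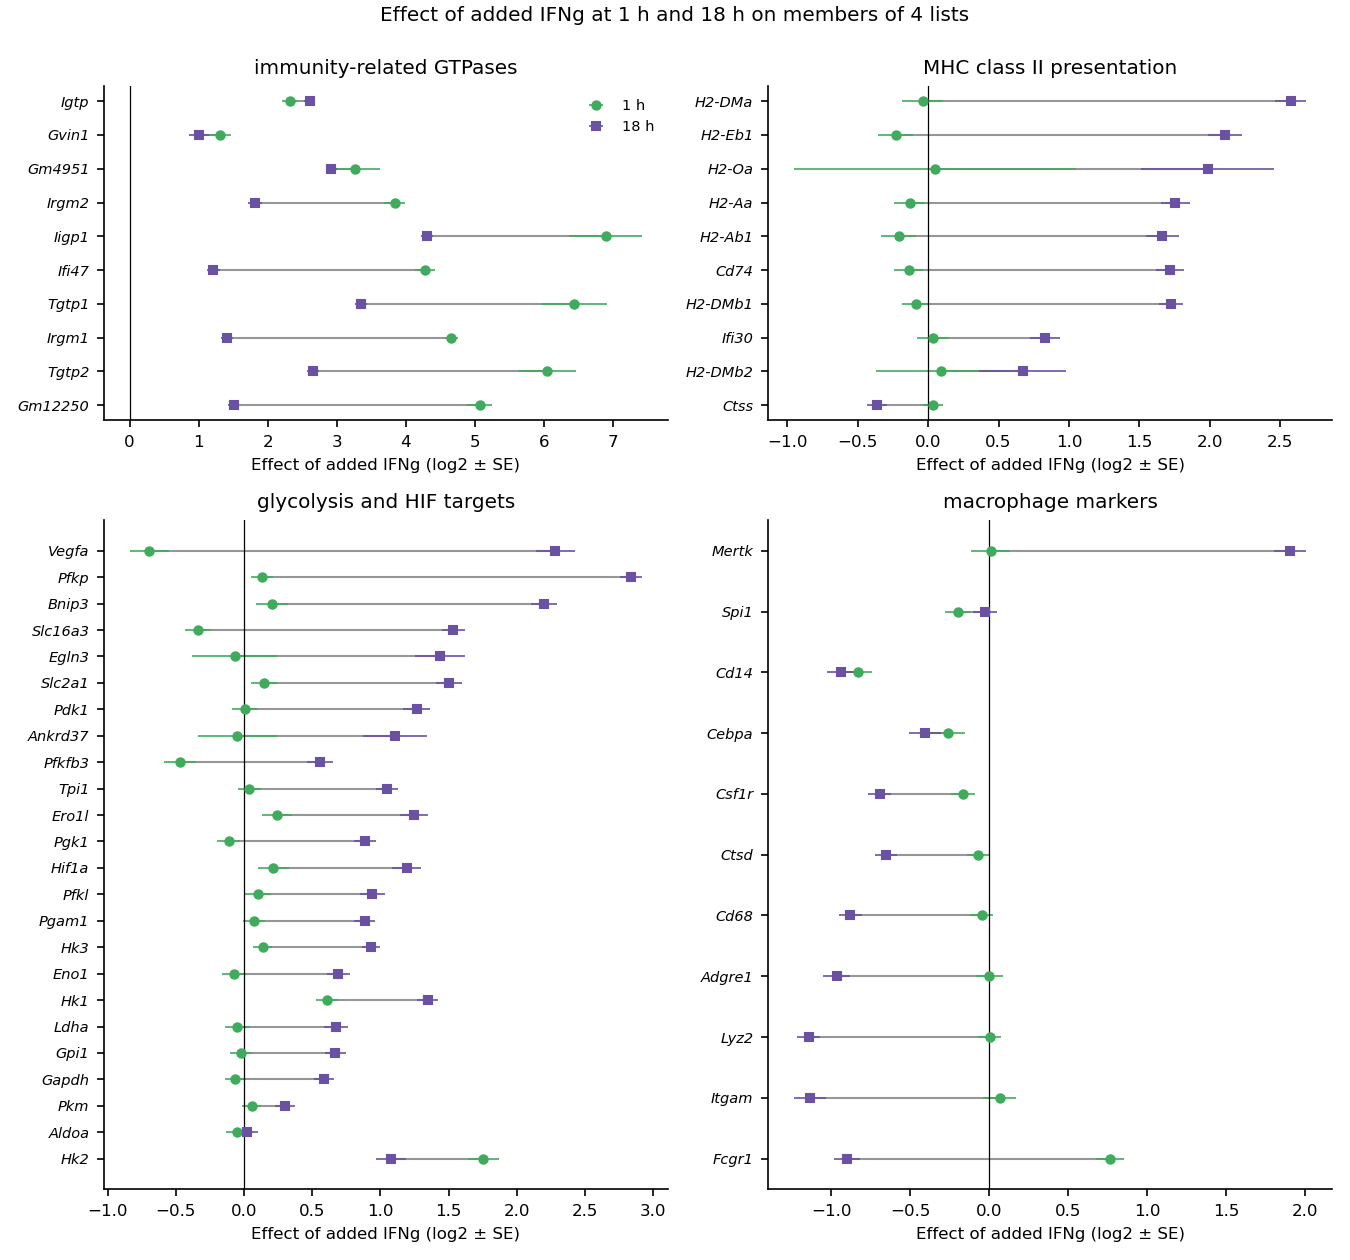
Effect of added IFNg (log2 ± SE, LPS with IFNg over LPS alone) at 1 h (green circles) and 18 h (purple squares) for the tested members of 4 lists except a macrophage marker that is not reported, ordered by the difference between the times. Immunity-related GTPases lie to the right at both times with the 18 h squares mostly nearer to 0, MHC class II and glycolysis genes lie near 0 at 1 h and to the right at 18 h, and macrophage markers lie near 0 at 1 h and mostly to the left at 18 h.

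Of 9 interferon-induced chemokines, 5 were higher and 3 lower with IFNg at each time. Their differences were negative in 5 and positive in 2 (median -1.59). The positive count was 1 without LPS 1 h replicate 1, LPS 18 h replicate 1 or LPS with IFNg 1 h replicate 2. Cxcl10, the best known ligand of CXCR3, stood at 5181, 4712 and 5263 CPM with LPS and IFNg at 1 h, against 276, 287 and 254 CPM with LPS alone. At 18 h Cxcl10 stood at 2104, 2169 and 2148 CPM with LPS and IFNg, against 334, 389 and 319 CPM with LPS alone. Unstimulated cells held 7.35, 1.19 and 0.838 CPM at 1 h and 2.46, 1.90 and 1.71 CPM at 18 h. The groups were far apart at both times, and the effect was 4.21 ± 0.08 at 1 h and 2.62 ± 0.08 at 18 h (difference -1.59 ± 0.11, edgeR adjusted p = 5.58e-10). Cxcl11 had a difference of -4.29 ± 0.50 and stood at 116, 99.5 and 119 CPM with LPS and IFNg at 1 h, against 0.365, 0.797 and 0.45 CPM with LPS alone. At 18 h Cxcl11 stood at 151, 147 and 165 CPM with LPS and IFNg, against 13.4, 18.3 and 13.7 CPM with LPS alone. Cxcl9, the third ligand of CXCR3, had 3 counts in all with LPS alone at 1 h, so it is given by its levels. It stood at 1171, 1100.1 and 1136 CPM with LPS and IFNg at 1 h, against 0.182, 0.399 and 0 CPM with LPS alone. At 18 h Cxcl9 stood at 3457, 3385 and 3523 CPM with LPS and IFNg, against 118, 136 and 128 CPM with LPS alone. Ccl12, a monocyte attractant, was reversed (3.05 ± 0.17 at 1 h and -0.56 ± 0.10 at 18 h).

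In the list of the type I interferon response, 21 of 32 tested members were higher with IFNg at 1 h and 1 was lower. At 18 h 16 were higher and 7 lower. The difference was negative in 17 and positive in 4 (median -0.84), and without LPS 18 h replicate 2 in 20 and 4. Ifit1 was 1.41 ± 0.13 at 1 h and 0.36 ± 0.11 at 18 h, and Mndal, of the interferon-inducible p200 family, was 2.56 ± 0.10 at 1 h and 0.31 ± 0.10 at 18 h. Ifit3 was reversed: it stood at 65.8, 77.7 and 73.1 CPM with LPS and IFNg at 1 h, against 27.3, 11.0 and 22.5 CPM with LPS alone. At 18 h Ifit3 stood at 814, 787 and 726 CPM with LPS and IFNg, against 1285, 1486 and 1212 CPM with LPS alone. Its levels rose with time under both stimuli and ended higher with LPS alone, without overlap (difference -2.60 ± 0.22, edgeR adjusted p = 8.45e-09). Ifnb1, the gene of interferon beta, was lower with IFNg at 1 h, with 9.88, 9.91 and 8.55 CPM with LPS and IFNg at 1 h, against 26.3, 20.9 and 22.03 CPM with LPS alone. At 18 h it was near the floor of detection in both groups, with 1.10, 1.34 and 1.01 CPM with LPS and IFNg and 1.10, 0.367 and 0.507 CPM with LPS alone. Rsad2, which encodes the antiviral enzyme viperin, was 1.31 ± 0.12 at 1 h and 0.92 ± 0.10 at 18 h and its difference of -0.39 ± 0.15 was just short of the threshold (edgeR adjusted p = 0.0545). It passed with a replicate block (0.0411), with DESeq2 (0.0497), limma-voom (0.0331), library-size scaling (0.0211) and no count filter (0.00487), and when LPS 1 h replicate 3, LPS 18 h replicate 2 or LPS 18 h replicate 3 was left out (adjusted p of 0.00434 to 0.0347).

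Other genes raised by IFNg at 1 h lost the effect by 18 h. Tarm1, an activating receptor of myeloid cells, stood at 20.9, 17.9 and 19.5 CPM with LPS and IFNg at 1 h, against 0.547, 1.20 and 1.57 CPM with LPS alone. At 18 h Tarm1 stood at 131, 124 and 124 CPM with LPS and IFNg, against 124, 138 and 110.2 CPM with LPS alone. The groups were separate at 1 h and overlapped at 18 h (difference -4.13 ± 0.36, edgeR adjusted p = 1.22e-10). Rnd1, a small GTPase, was at 539.6, 447 and 566 CPM with LPS and IFNg at 1 h, against 48.0, 35.7 and 54.6 CPM with LPS alone. By 18 h it stood at 4.68, 5.04 and 7.22 CPM with LPS and IFNg, beside 6.60, 9.72 and 7.44 CPM with LPS alone (difference -3.98 ± 0.28). Il1rn, the antagonist of the interleukin-1 receptor, kept a small effect: it was 2.64 ± 0.09 at 1 h and 0.28 ± 0.09 at 18 h.

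Several of the most positive differences belonged to genes on which IFNg had no called effect at 1 h. Ciita stood at 13.2, 13.6 and 12.5 CPM with LPS and IFNg at 1 h, against 11.3, 8.77 and 12.8 CPM with LPS alone. At 18 h Ciita stood at 163, 168 and 162 CPM with LPS and IFNg, against 3.30, 3.30 and 4.23 CPM with LPS alone. Unstimulated cells held 8.46, 8.35 and 12.1 CPM at 1 h and 3.68, 5.42 and 5.42 CPM at 18 h. The 1 h groups overlapped and the 18 h groups lay far apart, with LPS alone below the unstimulated cells in 2 of 3 libraries and within their range in the other. The effect was 0.26 ± 0.14 at 1 h (edgeR adjusted p = 0.359) and 5.50 ± 0.17 at 18 h, a difference of 5.24 ± 0.22 (edgeR adjusted p = 1.11e-13). The 10 tested genes of MHC class II presentation, many of them textbook targets of CIITA, had no called effect at 1 h (median -0.06). At 18 h 8 were higher with IFNg and 1 lower (median 1.72), and 7 differences were positive and 1 negative (median 1.86). H2-Aa, a chain of the I-A molecule, stood at 179, 159 and 183 CPM with LPS and IFNg at 1 h, against 193, 189.5 and 189 CPM with LPS alone. At 18 h H2-Aa stood at 854, 972 and 806 CPM with LPS and IFNg, against 239, 319 and 223 CPM with LPS alone. LPS 18 h replicate 2 was the highest of its group, and the groups still did not overlap (difference 1.89 ± 0.15, edgeR adjusted p = 3.55e-09). H2-DMa, which loads peptides (2.61 ± 0.18), H2-Eb1 (2.34 ± 0.17), H2-Ab1 (1.87 ± 0.17) and Cd74, the invariant chain (1.86 ± 0.14), had differences with edgeR adjusted p of 3.14e-08 or less. The counts of the list were the same without LPS 18 h replicate 2, and the median was then 2.045.

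Genes of MHC class I presentation and the immunoproteasome split. Of 19 tested, 2 were higher with IFNg at 1 h and 14 at 18 h, and 8 differences were positive and 2 negative (median 0.30); without LPS 18 h replicate 2 the counts were 11 and 2. Tapbpl, a peptide editor, rose late (0.23 ± 0.12 at 1 h and 2.05 ± 0.08 at 18 h), as did Tap2, a subunit of the peptide transporter (0.24 ± 0.12 at 1 h and 1.64 ± 0.10 at 18 h). Its partner Tap1 was raised early and less at 18 h (2.58 ± 0.10 at 1 h and 1.26 ± 0.08 at 18 h, difference -1.32 ± 0.13). Psmb9, an immunoproteasome subunit that lies head to head with Tap1, persisted (0.76 ± 0.12 at 1 h and 0.91 ± 0.09 at 18 h).

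Among costimulatory and checkpoint molecules, 9 of 16 differences were positive and 2 negative (median 0.73), and 13 of 16 genes were higher with IFNg at 18 h. Without LPS 18 h replicate 2 the differences were 8 positive and 2 negative. Cd86, a ligand of CD28, stood at 5.10, 4.78 and 7.28 CPM with LPS and IFNg at 1 h, against 6.20, 6.78 and 5.17 CPM with LPS alone. At 18 h Cd86 stood at 588, 606 and 557 CPM with LPS and IFNg, against 69.3, 79.6 and 57.3 CPM with LPS alone. It was low at 1 h in both groups, which overlapped, and differed at 18 h without overlap (difference 3.17 ± 0.25, edgeR adjusted p = 4.58e-09). Cd40, the receptor of CD40 ligand, was raised at both times and more at 18 h (1.77 ± 0.11 at 1 h and 3.11 ± 0.12 at 18 h). Vcam1, an adhesion molecule (-1.41 ± 0.13 at 1 h and 0.73 ± 0.14 at 18 h), and Havcr2, which encodes the receptor TIM-3 (-0.48 ± 0.10 at 1 h and 1.57 ± 0.10 at 18 h), were lower with IFNg at 1 h and higher at 18 h. Cd274, which encodes PD-L1, was raised less at 18 h (2.95 ± 0.10 at 1 h and 2.03 ± 0.09 at 18 h), although its level with IFNg rose to 4181, 4220.2 and 4297 CPM.

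Genes of glycolysis and targets of the hypoxia factor HIF gained an effect of IFNg at 18 h. Of 24 tested, 2 were higher and 3 lower with IFNg at 1 h (median 0.02), and 23 were higher and none lower at 18 h (median 1.06). The difference was positive in 21 and negative in 1 (median 0.99), against 16.4% and 17.6% of all tested genes. Without LPS 18 h replicate 2 it was positive in 22 and negative in 1. Pfkp, an isoform of phosphofructokinase, stood at 139.6, 151 and 136 CPM with LPS and IFNg at 1 h, against 126, 133 and 131 CPM with LPS alone. At 18 h Pfkp stood at 516, 515 and 456 CPM with LPS and IFNg, against 71.5, 73.7 and 62.7 CPM with LPS alone. The groups lay apart at 18 h (difference 2.71 ± 0.12, edgeR adjusted p = 3.65e-13). Bnip3, a mitophagy receptor and HIF target, was 0.20 ± 0.12 at 1 h and 2.20 ± 0.10 at 18 h. Vegfa, the angiogenic factor (-0.69 ± 0.14 at 1 h and 2.28 ± 0.14 at 18 h), and Slc16a3, the lactate exporter (-0.34 ± 0.10 at 1 h and 1.54 ± 0.09 at 18 h), were lower with IFNg at 1 h and higher at 18 h. Of 23 genes of the TCA cycle and respiratory chain, 7 differences were negative and 2 positive, and the positive count was 3 without LPS 18 h replicate 2 and 1 without LPS 1 h replicate 1, LPS with IFNg 1 h replicate 3 or LPS with IFNg 18 h replicate 1 or 2. Idh2 and Idh1, the mitochondrial and the cytosolic isocitrate dehydrogenase that use NADP, fell with IFNg at 18 h (-2.06 ± 0.13 and -1.18 ± 0.09), and so did the fumarase gene Fh1 (-0.59 ± 0.11); no effect was called on them at 1 h.

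Further single genes stood out at 18 h. Mycl, a MYC family factor, had the most positive difference of the genes named (8.13 ± 0.63, edgeR adjusted p = 8.62e-12). It stood at 0.823, 1.24 and 0.791 CPM with LPS and IFNg at 1 h, against 3.83, 3.59 and 4.72 CPM with LPS alone. At 18 h Mycl stood at 20.0, 20.3 and 20.7 CPM with LPS and IFNg, against 0.314, 0.183 and 0.338 CPM with LPS alone. The order of the groups was the opposite at the 2 times, with no overlap at either. Ptgs2, the inducible cyclooxygenase that makes prostaglandins, stood at 751, 697 and 804 CPM with LPS and IFNg at 1 h, against 269.7, 259 and 325 CPM with LPS alone. At 18 h Ptgs2 stood at 2005, 2163 and 1989 CPM with LPS and IFNg, against 48.0, 37.8 and 45.0 CPM with LPS alone. With IFNg it went on rising and with LPS alone it fell (difference 4.15 ± 0.14, edgeR adjusted p = 1.22e-14). In the prostaglandin and leukotriene list, 2 of 16 tested genes were higher and 6 lower with IFNg at 18 h, and 4 differences were positive and 5 negative (5 and 5 without LPS 18 h replicate 2). Ptges, the prostaglandin E synthase that acts after it, was lower with IFNg at 18 h (-2.22 ± 0.10), and Pla2g4a, the phospholipase that acts before it, was higher (2.03 ± 0.10). Kynu, the kynureninase of tryptophan breakdown, stood at 0.494, 0.177 and 0.633 CPM with LPS and IFNg at 1 h, against 0.365, 0.199 and 0.225 CPM with LPS alone. At 18 h Kynu stood at 29.2, 24.7 and 24.9 CPM with LPS and IFNg, against 0.314, 0.183 and 0.676 CPM with LPS alone. It was near the floor in all groups but LPS with IFNg at 18 h (difference 5.30 ± 0.95, edgeR adjusted p = 0.000892). Wars, the tryptophanyl-tRNA synthetase of the same list of 7 genes, was 2.41 ± 0.08 at 18 h and 0.12 ± 0.09 at 1 h. Ido1, which starts that pathway, had 7.44, 7.22 and 10.7 CPM with LPS and IFNg at 18 h, against 0, 0 and 0.338 CPM with LPS alone, and 1 or no counts in the 1 h libraries, so it is given by its levels alone.

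Slc6a19, a transporter of neutral amino acids (5.79 ± 0.83), Slc4a11 (4.59 ± 0.62), Cytip, which regulates leukocyte adhesion (4.18 ± 0.18), the Krueppel-like factor gene Klf8 (4.10 ± 0.34), Serpinb1a, an inhibitor of neutrophil proteases (4.01 ± 0.49), Otud1, a deubiquitinase (3.91 ± 0.15) and Cnn3, an actin-binding calponin (3.84 ± 0.48) had the other most positive differences among named genes that averaged 5 CPM or more and had more than 3 counts in each group. Cytip stood at 82.6, 68.5 and 80.4 CPM with LPS and IFNg at 1 h, against 97.4, 74.9 and 109.7 CPM with LPS alone. At 18 h Cytip stood at 192, 212 and 204 CPM with LPS and IFNg, against 13.4, 11.6 and 15.7 CPM with LPS alone. The 1 h groups overlapped, and by 18 h the level had risen with IFNg and fallen with LPS alone. Klf4, a factor of monocyte and alternative activation programs, followed the same course as Cytip at 18 h, with 137, 145 and 126 CPM with LPS and IFNg at 18 h, against 14.5, 15.0 and 15.4 CPM with LPS alone and an effect of 0.17 ± 0.11 at 1 h.

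**Figure D4:**
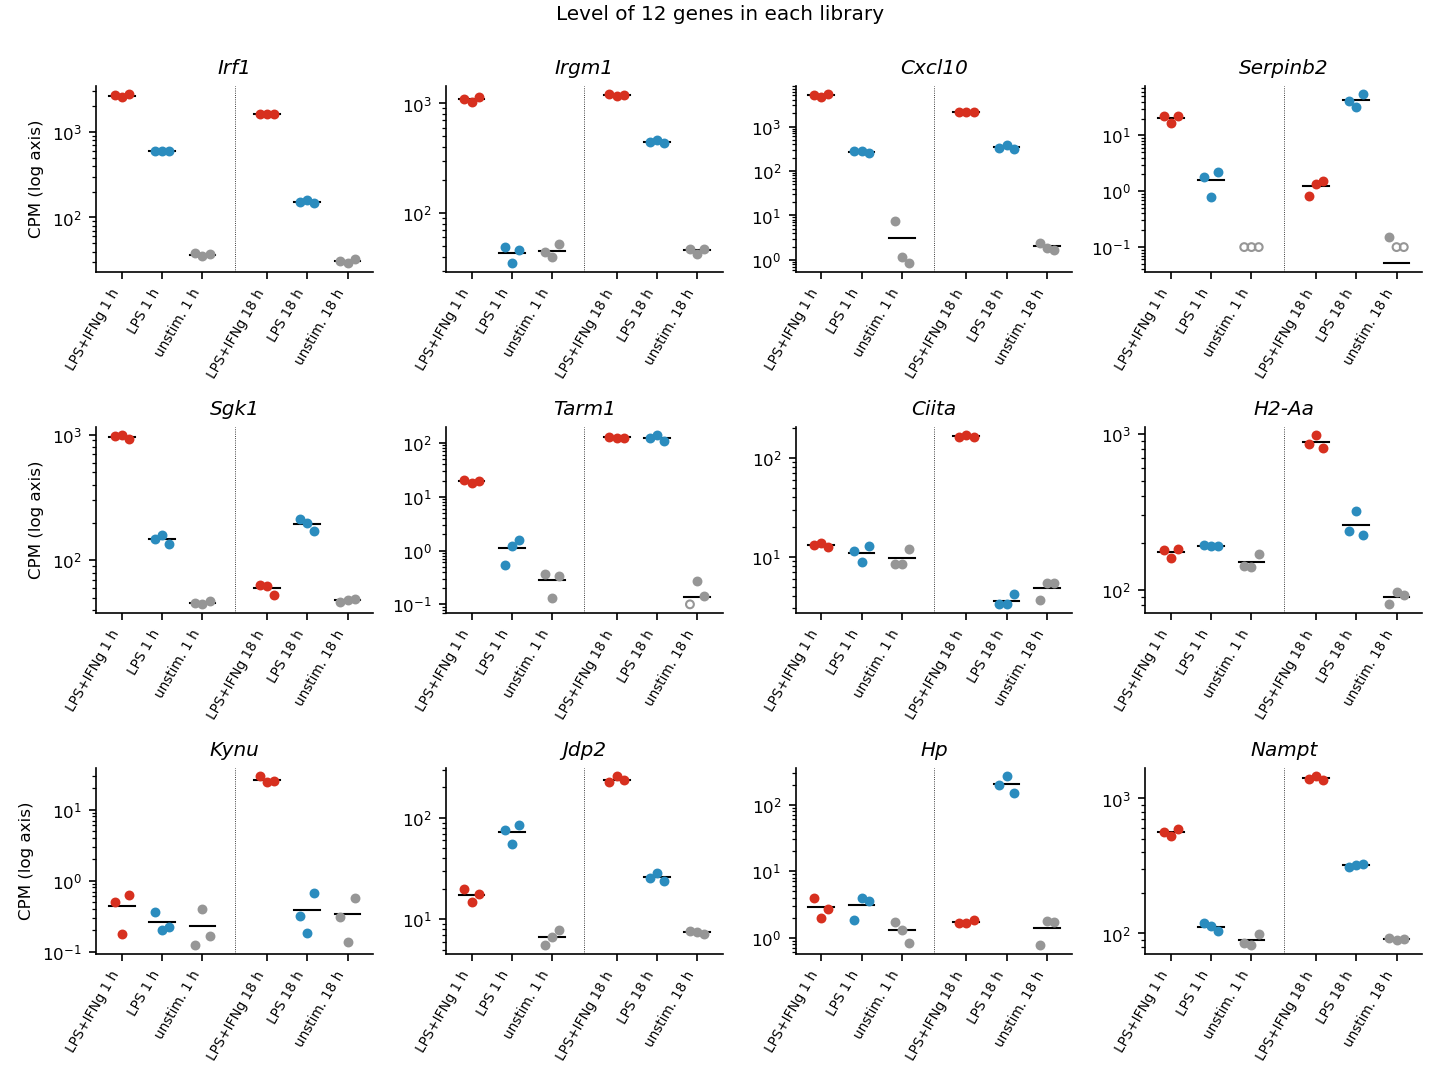
Level (CPM, log axis) of 12 genes in each library, at 1 h left of the dotted line and at 18 h right of it, with LPS and IFNg in red, LPS alone in blue and unstimulated cells in grey; bars are group means and open circles are libraries with no counts, drawn at 0.1. Irf1 and Nampt keep a gap at both times, Ciita, H2-Aa and Kynu gain one at 18 h, Tarm1 loses it, and in Serpinb2, Sgk1 and Jdp2 the red and blue points change places between the times.

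Among named genes that averaged 5 CPM or more and had more than 3 counts in each group, Hp and Ccr3 had the most negative differences with an effect called at 18 h alone. Hp, which encodes the haemoglobin-binding acute phase protein haptoglobin, stood at 3.95, 1.95 and 2.69 CPM with LPS and IFNg at 1 h, against 1.82, 3.99 and 3.596 CPM with LPS alone. At 18 h Hp stood at 1.65, 1.68 and 1.85 CPM with LPS and IFNg, against 197, 264 and 147 CPM with LPS alone. Its level rose with time with LPS alone, where 18 h libraries lay far above unstimulated cells (0.767, 1.76 and 1.71 CPM), and stayed low with IFNg (difference -6.76 ± 0.59, edgeR adjusted p = 1.85e-08). Ccr3, a receptor of eotaxins, stood at 47.6, 38.4 and 45.6 CPM with LPS and IFNg at 1 h, against 42.8, 38.3 and 52.6 CPM with LPS alone. At 18 h Ccr3 stood at 1.93, 0.336 and 1.68 CPM with LPS and IFNg, against 41.04, 31.0 and 57.3 CPM with LPS alone. Here the level with LPS alone was alike at both times and that with IFNg fell (difference -4.96 ± 0.48). Siglece, an inhibitory receptor for sialic acids (-4.37 ± 0.46), Rab3il1 (-4.26 ± 0.21) and Cbr2, a carbonyl reductase (-3.91 ± 0.52), had the other large negative differences of this kind.

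Among attractants of neutrophils and other inflammatory chemokines, 6 of 7 differences were negative and 1 positive (median -2.34). Cxcl1, a ligand of CXCR2, stood at 173, 158 and 176 CPM with LPS and IFNg at 1 h, against 418, 468 and 406 CPM with LPS alone. At 18 h Cxcl1 stood at 0, 0.168 and 0.672 CPM with LPS and IFNg, against 5.66, 8.99 and 4.23 CPM with LPS alone. It was lower with IFNg at both times, with few counts left at 18 h (difference -3.12 ± 0.78, edgeR adjusted p = 0.000139). Cxcl3 was -1.99 ± 0.26 at 1 h and -4.55 ± 0.25 at 18 h. Ccl4 was reversed (0.70 ± 0.08 at 1 h and -1.78 ± 0.11 at 18 h), and so was Ccl22, a ligand of CCR4, in the other direction (-1.74 ± 0.14 at 1 h and 1.26 ± 0.14 at 18 h).

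Most macrophage marker genes were lower with IFNg at 18 h. Of 12 tested, 1 was higher and 1 lower at 1 h, and 1 was higher and 10 lower at 18 h. The difference was negative in 8 and positive in 1 (median -0.71), and without LPS 18 h replicate 2 in 8 and 2. Their summed level was 24350 to 27280 CPM with LPS and IFNg and 26220 to 27860 CPM with LPS alone at 1 h, and 17620 to 18140 CPM with LPS and IFNg and 31420 to 33390 CPM with LPS alone at 18 h, beside 22310 to 24910 CPM in unstimulated cells at 18 h. None of the 12 markers was at 0 in any group. Itgam, which encodes CD11b, was 0.07 ± 0.10 at 1 h and -1.13 ± 0.10 at 18 h, and Mertk, a receptor for dying cells, was the member that rose (0.01 ± 0.12 at 1 h and 1.91 ± 0.10 at 18 h).

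Fc receptor and phagocytosis genes, some of them on the marker list too, had 13 negative and 5 positive differences among 19 (median -1.01), the same counts as without LPS 18 h replicate 2. Fcgr2b, the inhibitory Fc receptor, stood at 42.1, 39.5 and 50.96 CPM with LPS and IFNg at 1 h, against 29.2, 26.5 and 31.9 CPM with LPS alone. At 18 h Fcgr2b stood at 91.0, 89.5 and 101 CPM with LPS and IFNg, against 528, 492 and 499 CPM with LPS alone. It was higher with IFNg at 1 h and lower at 18 h, without overlap (difference -3.04 ± 0.14, edgeR adjusted p = 9.46e-13). Fcgr1, the high-affinity receptor and a textbook IFNg target, turned likewise (0.77 ± 0.09 at 1 h and -0.90 ± 0.08 at 18 h), while its level rose with time under both stimuli. Mrc1, the mannose receptor, was 0.32 ± 0.17 at 1 h and -1.63 ± 0.23 at 18 h. Cd163, the scavenger receptor for haemoglobin complexes, had no counts with LPS and IFNg at 18 h, against 2.04, 1.28 and 3.55 CPM with LPS alone, and 6.26, 8.85 and 6.96 CPM with LPS and IFNg at 1 h, against 5.47, 7.57 and 7.42 CPM with LPS alone. Among complement genes 5 of 14 differences were negative and 1 positive, and C5ar1, the receptor of the fragment C5a, was one of the negative ones (-1.40 ± 0.14). Of 10 markers of IL-4 responses 5 differences were negative and 2 positive. The negative ones include Arg1, which had 1 count in all with LPS alone at 1 h. Chil3 was 0.23 ± 0.13 at 1 h and -1.90 ± 0.18 at 18 h.

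Markers of other cell types were low and moved with some of these groups. Summed neutrophil and progenitor markers were 180.7 to 234.7 CPM with LPS and IFNg and 173.4 to 184.5 CPM with LPS alone at 1 h, and 28.37 to 48.7 CPM with LPS and IFNg and 109.1 to 158.6 CPM with LPS alone at 18 h, where 4 and 2 of the 12 genes were at 0. Among their 7 tested members 4 differences were negative, S100a8 (-2.57 ± 0.27) and Ltf (-2.61 ± 0.28) included. Summed B cell markers were 8.815 to 9.068 CPM with LPS and IFNg and 16.32 to 25.02 CPM with LPS alone at 18 h, with 2 and 1 of 8 at 0. Dendritic cell markers went the other way, with 12.26 to 15.61 CPM with LPS and IFNg and 4.088 to 5.685 CPM with LPS alone at 18 h. Only 3 of the 8 listed genes passed the count filter, and all 3 differences were positive. The lowest group held 2 counts for 1 of these genes and 6 for another. The positive count was 2 without LPS 1 h replicate 1. Summed T and NK cell markers were 15.57 to 21.52 CPM with LPS and IFNg and 5.381 to 7.84 CPM with LPS alone at 1 h, and 19.64 to 24.38 CPM with LPS and IFNg and 5.685 to 10.14 CPM with LPS alone at 18 h, with 12 and 10 of 16 genes at 0 at 18 h. Only 3 of the 16 passed the count filter, with 1 positive and 2 negative differences. The T cell receptor genes Cd3e and Trbc2 had no counts in any group, so the sums rest on few of the markers. The part of these cells in the results above was not tested.

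Reversed genes fell into both directions. Serpinb2, which encodes the plasminogen activator inhibitor PAI-2, had the most negative difference of the genes named (-8.79 ± 0.56, edgeR adjusted p = 9.83e-13). It stood at 22.2, 16.8 and 22.2 CPM with LPS and IFNg at 1 h, against 1.82, 0.797 and 2.25 CPM with LPS alone. At 18 h Serpinb2 stood at 0.826, 1.34 and 1.51 CPM with LPS and IFNg, against 42.1, 31.9 and 54.3 CPM with LPS alone. Unstimulated cells had no counts at 1 h and 0.153 CPM in 1 of 3 libraries at 18 h. The group with IFNg was the higher at 1 h and the lower at 18 h, with no overlap. Sgk1, a kinase related to AKT, stood at 974, 985 and 922 CPM with LPS and IFNg at 1 h, against 147, 160.4 and 135 CPM with LPS alone. At 18 h Sgk1 stood at 64.2, 62.1 and 52.9 CPM with LPS and IFNg, against 213, 197 and 172 CPM with LPS alone. It was higher with IFNg at 1 h, and at 18 h it was lower with IFNg and near the level of unstimulated cells, 46.4, 48.5 and 49.1 CPM (difference -4.40 ± 0.13, edgeR adjusted p = 3.78e-15). Gja1, the gap junction protein connexin 43 (2.32 ± 0.14 at 1 h and -1.58 ± 0.25 at 18 h), Osgin1, an oxidative stress gene (2.87 ± 0.16 at 1 h and -0.88 ± 0.13 at 18 h), Cebpd, a C/EBP factor (1.09 ± 0.18 at 1 h and -2.62 ± 0.33 at 18 h), Timp1, an inhibitor of matrix proteases (1.64 ± 0.27 at 1 h and -1.34 ± 0.11 at 18 h), and Il4ra, the IL-4 receptor (2.20 ± 0.09 at 1 h and -0.29 ± 0.09 at 18 h), followed the same course.

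In the other direction, Jdp2, a repressor of AP-1, stood at 20.1, 14.9 and 17.6 CPM with LPS and IFNg at 1 h, against 76.6, 55.8 and 85.2 CPM with LPS alone. At 18 h Jdp2 stood at 225, 257 and 236 CPM with LPS and IFNg, against 25.3, 28.6 and 24.002 CPM with LPS alone. Its level fell with time with LPS alone and rose with IFNg (difference 5.25 ± 0.19, edgeR adjusted p = 3.33e-14). Fosl1, an AP-1 subunit (-1.57 ± 0.27 at 1 h and 1.87 ± 0.44 at 18 h), Rgs1, a brake on G protein signals (-1.15 ± 0.08 at 1 h and 2.10 ± 0.10 at 18 h), and Il27, a cytokine of the IL-12 family (-0.60 ± 0.19 at 1 h and 2.65 ± 0.16 at 18 h), were also lower with IFNg at 1 h and higher at 18 h. So were the NF-kappaB inhibitor genes Nfkbie (-1.15 ± 0.09 at 1 h and 1.11 ± 0.09 at 18 h) and Nfkbid (-0.54 ± 0.09 at 1 h and 1.10 ± 0.13 at 18 h) and the adaptor gene Traf1 (-0.65 ± 0.10 at 1 h and 0.74 ± 0.09 at 18 h). Of the 18 NF-kappaB feedback genes 7 differences were positive and 5 negative, and without LPS 18 h replicate 2 the counts were 8 and 5. Egr3 was at 7.08, 7.96 and 9.34 CPM with LPS and IFNg at 1 h, against 36.8, 33.7 and 44.1 CPM with LPS alone, and had 1 count in each library with LPS and IFNg and none with LPS alone at 18 h.

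Inflammatory cytokines split, with 7 of 19 differences positive and 3 negative (median 0.83); without LPS 18 h replicate 2 the counts were 8 and 3. At 1 h 6 were higher and 9 lower with IFNg, and at 18 h 9 were higher and 6 lower. Il10, the anti-inflammatory cytokine, stood at 18.1, 14.9 and 23.3 CPM with LPS and IFNg at 1 h, against 201, 165 and 219 CPM with LPS alone. At 18 h Il10 stood at 3.44, 4.70 and 4.87 CPM with LPS and IFNg, against 5.35, 8.80 and 6.93 CPM with LPS alone. It was lower with IFNg at both times and less so at 18 h, when both groups were far below the LPS level of 1 h (difference 2.68 ± 0.30, edgeR adjusted p = 9.34e-07). Tnf had no called effect at 1 h (0.22 ± 0.08) and was 1.04 ± 0.08 at 18 h, a time when it was far below its 1 h level. Il12b, the shared subunit of IL-12 and IL-23, was 3.14 ± 0.26 at 1 h and 4.58 ± 0.32 at 18 h (difference 1.44 ± 0.42, edgeR adjusted p = 0.0089), and without LPS 1 h replicate 1 the difference was 1.23 with an adjusted p of 0.0539. Il6 persisted (1.52 ± 0.24 at 1 h and 1.37 ± 0.18 at 18 h).

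Persistent effects were found in genes of several kinds. Nampt, whose enzyme limits the salvage of NAD+, stood at 567, 528 and 595 CPM with LPS and IFNg at 1 h, against 119, 113 and 105 CPM with LPS alone. At 18 h Nampt stood at 1395, 1456 and 1374 CPM with LPS and IFNg, against 312, 321 and 328 CPM with LPS alone. The level rose with time in both groups, which stayed apart. The effect was 2.32 ± 0.07 at 1 h and 2.14 ± 0.07 at 18 h, and the difference of -0.19 ± 0.10 (95% interval -0.40 to 0.03) had an edgeR adjusted p of 0.181. Calhm6, a channel gene induced by interferon, had the largest persistent effect of the genes named (4.06 ± 0.15 at 1 h and 3.73 ± 0.11 at 18 h). The others were Enc1 (2.85 ± 0.12 at 1 h and 3.07 ± 0.17 at 18 h), Slamf8, a receptor of the SLAM family (2.34 ± 0.13 at 1 h and 2.39 ± 0.10 at 18 h), Crem, a factor of cAMP responses (2.77 ± 0.14 at 1 h and 2.34 ± 0.12 at 18 h), Fgl2 (2.29 ± 0.17 at 1 h and 2.35 ± 0.09 at 18 h), the STAT5 target Cish (2.23 ± 0.12 at 1 h and 2.51 ± 0.24 at 18 h) and Ggct (2.05 ± 0.21 at 1 h and 2.10 ± 0.15 at 18 h). For Crem the difference of -0.44 ± 0.18 passed without LPS with IFNg 1 h replicate 2 (-0.53, adjusted p = 0.0271). Slamf8 stood at 91.2, 90.1 and 113 CPM with LPS and IFNg at 1 h, against 14.8, 20.3 and 23.6 CPM with LPS alone. At 18 h Slamf8 stood at 715, 696 and 687 CPM with LPS and IFNg, against 130.0, 145 and 126 CPM with LPS alone. Its level rose with time under both stimuli. Gpr183, a receptor for oxysterols, persisted as lowered (-2.15 ± 0.13 at 1 h and -2.02 ± 0.34 at 18 h).

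The title of the series names NAD+ dependence, oxidants and DNA damage, and genes of these themes were read the same way. Of 16 tested genes of NAD+ synthesis and use, 2 differences were positive and 3 negative (median -0.072, and -0.134 to 0.086 over all alternatives), a share near that of all genes, and without LPS 18 h replicate 2 the counts were 2 and 2. Nadk2, the mitochondrial NAD kinase, had a positive difference (1.33 ± 0.28) and Nadk, the cytosolic one, a negative one (-0.60 ± 0.11). Cd38, the NAD+ hydrolase, had under 1.2 CPM in the 1 h libraries. At 18 h it stood at 61.3, 63.0 and 65.8 CPM with LPS and IFNg, against 146, 139 and 153 CPM with LPS alone, an effect of -1.20 ± 0.10 without overlap; its difference of -1.43 ± 0.68 did not pass (edgeR adjusted p = 0.107), and without LPS with IFNg 1 h replicate 2 it was -1.81 with an adjusted p of 0.0412.

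Of 17 PARP genes, which use NAD+ to modify proteins, 6 differences were positive and 3 negative (median 0.13). Parp1, the main responder to DNA breaks, stood at 135, 156 and 138 CPM with LPS and IFNg at 1 h, against 139, 148 and 131 CPM with LPS alone. At 18 h Parp1 stood at 35.4, 35.1 and 28.4 CPM with LPS and IFNg, against 61.3, 55.8 and 69.1 CPM with LPS alone. It had no called effect at 1 h and was lower with IFNg at 18 h without overlap (difference -0.94 ± 0.14, edgeR adjusted p = 2.06e-05). Parp9 (-1.23 ± 0.13) was raised at 1 h and less at 18 h, Tiparp (1.04 ± 0.12) was raised at 1 h and more at 18 h, and Parp4 (1.02 ± 0.19) was raised at 18 h alone. Parp14 had a difference of -0.49 ± 0.16 (edgeR adjusted p = 0.0238), which did not pass when LPS 1 h replicate 2, LPS 18 h replicate 1 or 3, LPS with IFNg 1 h replicate 3 or LPS with IFNg 18 h replicate 2 was left out (adjusted p of 0.0539 to 0.0747).

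Among antioxidant genes and targets of NRF2, 14 of 25 differences were positive and 4 negative (median 0.57), and without LPS 18 h replicate 2 the counts were 16 and 3. Nqo1, a quinone reductase, stood at 3.13, 2.48 and 2.69 CPM with LPS and IFNg at 1 h, against 2.92, 2.99 and 2.70 CPM with LPS alone. At 18 h Nqo1 stood at 12.3, 17.5 and 12.8 CPM with LPS and IFNg, against 3.14, 3.30 and 1.69 CPM with LPS alone. It differed at 18 h and not at 1 h (difference 2.42 ± 0.40). Srxn1 (-0.55 ± 0.09 at 1 h and 1.31 ± 0.09 at 18 h) and Slc7a11, the cystine importer (-0.66 ± 0.10 at 1 h and 0.85 ± 0.08 at 18 h), were lower with IFNg at 1 h and higher at 18 h, and Sod2, the mitochondrial superoxide dismutase, turned the other way (0.80 ± 0.09 at 1 h and -0.57 ± 0.08 at 18 h). Hmox1 had a difference of 0.25 ± 0.11 (edgeR adjusted p = 0.0787), which was 0.33 with an adjusted p of 0.00392 without LPS 18 h replicate 2. Of the 9 NADPH oxidase genes 1 difference was positive and 3 negative, and without LPS 18 h replicate 2 the counts were 2 and 2. Ncf1, the subunit p47phox, was -0.09 ± 0.07 at 1 h and 0.57 ± 0.07 at 18 h, and Cybb, the catalytic subunit, was -0.13 ± 0.08 at 1 h and -0.05 ± 0.08 at 18 h with no call.

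Of 27 p53 targets and damage response genes 10 differences were positive and 4 negative (median 0.15), and without LPS 18 h replicate 2 the counts were 8 and 4. Mdm2, the inhibitor of p53, stood at 350.0, 334 and 362 CPM with LPS and IFNg at 1 h, against 529.7, 472 and 515 CPM with LPS alone. At 18 h Mdm2 stood at 714, 738 and 765 CPM with LPS and IFNg, against 354, 318 and 334 CPM with LPS alone. The order of the groups changed between the times without overlap (difference 1.68 ± 0.10, edgeR adjusted p = 5.66e-11). Gadd45a turned the other way (0.49 ± 0.13 at 1 h and -1.48 ± 0.18 at 18 h), and Sesn1 fell with IFNg at 18 h (-1.93 ± 0.16). Cdkn1a, the cell cycle inhibitor p21, had a difference of 0.34 ± 0.12 (edgeR adjusted p = 0.0341), which did not pass with library-size scaling (adjusted p = 0.0514) or when LPS 1 h replicate 1 or 3, LPS 18 h replicate 1, LPS with IFNg 1 h replicate 2 or LPS with IFNg 18 h replicate 2 was left out (0.0617 to 0.109). Of 25 S phase genes 9 differences were negative and 4 positive (median -0.47), and 9 and 5 without LPS 18 h replicate 2. The negative count was 4 or 5 when any 1 library was left out other than LPS 1 h replicate 2, LPS 18 h replicate 2, LPS with IFNg 1 h replicate 3 and LPS with IFNg 18 h replicate 3, and it was 5 with limma-voom. Ccne1, cyclin E1, was a positive one (2.91 ± 0.25), with 35.8, 39.3 and 37.6 CPM with LPS and IFNg at 18 h, against 4.56, 5.69 and 3.89 CPM with LPS alone.

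Of 20 Toll-like receptors and adaptors 8 differences were negative and 5 positive. The negative count was 5 without LPS 1 h replicate 2, LPS with IFNg 1 h replicate 2 or LPS with IFNg 18 h replicate 2. The nucleic acid sensors Tlr9 (-0.66 ± 0.33 at 1 h and 2.60 ± 0.17 at 18 h) and Tlr7 (0.33 ± 0.10 at 1 h and -1.22 ± 0.11 at 18 h) differed in opposite directions at 18 h. The adaptor gene Ticam1, which encodes TRIF, was lower with IFNg at 1 h and higher at 18 h (-0.90 ± 0.09 at 1 h and 0.69 ± 0.09 at 18 h). Of 23 genes of pyroptosis, necroptosis and apoptosis 7 differences were positive and 3 negative, and 8 and 2 without LPS 18 h replicate 2. Ripk1, a kinase of the death receptor pathway, was raised at 1 h and less at 18 h (1.69 ± 0.10 at 1 h and 0.53 ± 0.10 at 18 h). Pycard, the inflammasome adaptor ASC, was lowered at 18 h (-0.03 ± 0.10 at 1 h and -1.25 ± 0.10 at 18 h).

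Immediate early factors had 10 positive and 6 negative differences among 27, and 11 and 6 without LPS 18 h replicate 2. Nr4a2, an orphan nuclear receptor of this kind, was -0.66 ± 0.40 at 1 h and 2.75 ± 0.42 at 18 h. Of 17 matrix proteases and inhibitors 7 were positive and 5 negative, 6 and 6 without LPS 18 h replicate 2, and 4 were positive without LPS 1 h replicate 3. Of 26 genes of cholesterol synthesis and LXR targets 8 were positive and 7 negative, and 9 and 8 without LPS 18 h replicate 2. Ch25h, which makes 25-hydroxycholesterol, was higher with IFNg at 18 h (0.75 ± 0.30 at 1 h and 2.65 ± 0.18 at 18 h). Of 24 genes of G2 and mitosis 2 were positive and 3 negative, lower shares than over all tested genes. Their summed level was 1553 to 2176 CPM with LPS and IFNg and 1644 to 2060 CPM with LPS alone at 1 h. At 18 h it was low under both stimuli, 100.4 to 104.3 CPM with LPS and IFNg and 68.95 to 71.5 CPM with LPS alone. Unstimulated cells held 1943 to 2375 CPM at 18 h. Mki67, the proliferation marker, was lower with IFNg at 18 h (-0.05 ± 0.11 at 1 h and -1.81 ± 0.30 at 18 h), and Tpx2, a spindle factor, was higher (0.17 ± 0.11 at 1 h and 1.63 ± 0.12 at 18 h).

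Enzymes of arginine, nitric oxide and itaconate had 7 negative and 2 positive differences among 14 (median -0.52). The negative calls include Nos2 and Arg1, which had 0 and 1 counts with LPS alone at 1 h. The call on Nos2 was lost with limma-voom and without LPS 1 h replicate 1 or 2. That on Arg1 was lost without LPS with IFNg 1 h replicate 1 or 2. The negative count was 6 with limma-voom and without LPS 1 h replicate 2, and 5 at an adjusted p below 0.01. Nos2, the inducible nitric oxide synthase, had no counts with LPS alone at 1 h and is given by its levels: 5.10, 4.07 and 4.59 CPM with LPS and IFNg at 1 h, and 5470.1, 5202 and 4997 CPM with LPS and IFNg at 18 h, against 372, 337 and 293 CPM with LPS alone. Acod1, which makes itaconate, was 2.66 ± 0.10 at 1 h and 1.58 ± 0.10 at 18 h (difference -1.08 ± 0.14, edgeR adjusted p = 2.46e-06). Arg1, the arginase that competes with Nos2, had 1 count in all with LPS alone at 1 h and stood at 15.0, 20.7 and 15.8 CPM with LPS and IFNg at 18 h, against 130.0, 157 and 174 CPM with LPS alone. Arg2 was reversed (1.53 ± 0.32 at 1 h and -1.09 ± 0.26 at 18 h).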

How the data were processed

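RNA was measured by sequencing, and the deposited files hold raw counts of reads per Ensembl gene for each library. The submitters' processing notes name STAR, featureCounts, DESeq2 and deepTools with GRCm38, without roles or versions. Total counts of 4181890 to 8057789 per library limit the precision for genes with few counts.

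From these deposited counts one edgeR 4.0.16 quasi-likelihood model (R 4.3.3) with a term per group was fitted to the 12 libraries, after filterByExpr (minimum count 10) and TMM scaling. P-values were adjusted by Benjamini-Hochberg over all 12301 tested genes, with a threshold of 0.05 and 95% intervals. Symbols and positions came from GENCODE M21 (42548 of 43629 identifiers matched) and promoter windows from RefSeq. The persistent class needs an interval within 1 log2 unit either side of 0. All members, classes and gene lists were chosen with earlier results of these data known, and which lists are described was chosen after their counts were seen. Genes were named by rule: the 12 most positive and 12 most negative differences with a mean of at least 5 CPM, 6 reversed genes per direction, 10 persistent genes, up to 4 called members per list, the 4 called genes of highest mean with 3 or fewer counts in a group, by levels, and a set of well-known IFNg and LPS genes. The promoter window of Irf1 was added after its values were seen. Alternatives were other scalings, no count filter, DESeq2 1.42.0, limma-voom (limma 3.58.1), all 24 libraries, a replicate block, a stricter threshold and leaving out each library. Same-numbered replicates were not treated as pairs, since the labels give no shared source. The deviations do not settle whether they are pairs: 5 of 18 correlations were over 0.1, and 9 of 12 libraries correlated best with their own number. The replicate block gives the results with pairing. Results for some genes are not reported here.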

Additional observations from a re-analysis of the deposited data

Results flagged for a closer look

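Genes whose IFNg effect had opposite directions at the 2 times stood out, because the difference between the times was tested as an interaction in edgeR and passed, and both effects were called. In 118 genes the level was higher with IFNg at 1 h and lower with IFNg at 18 h. The differences (log2, 18 h minus 1 h) of the named ones were -8.79 for Serpinb2, -4.40 for Sgk1, -3.91 for Gja1, -3.75 for Osgin1, -3.71 for Cebpd and -3.61 for Ccl12. They were -3.04 for Fcgr2b, -2.98 for Timp1, -2.62 for Arg2, -2.60 for Ifit3, -2.49 for Il4ra, -2.48 for Ccl4 and -2.30 for the prostaglandin receptor gene Ptger4. Smaller ones were -1.97 for Gadd45a, -1.66 for Fcgr1, -1.55 for Tlr7, -1.47 for Mvd, -1.37 for Sod2, -1.27 for C3ar1 and -1.04 for Nfkbiz.

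In 191 genes the level was lower with IFNg at 1 h and higher with IFNg at 18 h. The differences were 8.13 for Mycl, 5.25 for Jdp2, 3.91 for Otud1, 3.44 for Fosl1, 3.25 for Rgs1, 3.24 for Il27 and 3.01 for Ccl22. They were 2.98 for Vegfa, 2.26 for Nfkbie, 2.13 for Vcam1, 2.05 for Havcr2, 1.88 for Slc16a3, 1.86 for Srxn1 and 1.68 for Mdm2. Smaller ones were 1.64 for Nfkbid, 1.59 for Ticam1, 1.52 for Slc7a11, 1.39 for Traf1, 1.31 for Odc1, 1.17 for Irak2, 1.17 for Mylip and 1.11 for Bid. Groups of 3 libraries are too small for a test of single outlying libraries.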

How the results depend on the processing

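The number of genes with a called difference was 4183, against 4175 with median-of-ratios scaling, 4157 with library-size scaling, 4088 without a count filter, 3746 with DESeq2, 4187 with limma-voom and 4466 in a fit of all 24 libraries. With a replicate block it was 4340, of which 4153 were shared. Of 12 libraries 9 correlated best with their own number, a hint from the data and not the design. Leaving out 1 library gave 3718 to 4485. In none of these settings did a gene called in both change sign. The share of positive calls was 42.3% with library-size scaling and 48.2% with TMM. An adjusted p below 0.01 left 2899 genes. It also left 425 genes lower with IFNg at 1 h, 173 reversed genes and 175 genes changed in size at both times, since fewer genes pass a stricter threshold. Without 1 library, the reversed genes numbered 228 to 390, those changed in size at both times 231 to 359, the persistent ones 205 to 299, and those lower with IFNg at 1 h 486 to 844. Each of the 12 libraries was left out in turn, and the results for named genes were pooled over these 12 fits. In that pool 51 calls were lost, 7 were gained and 2270 results stayed the same. The replicate block lost 1 call among named genes and gained 1. Depth limits genes with few counts: 64 of the 4183 had 3 or fewer counts in a group.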
